A study of Homo sapiens with 33 samples.

Results

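The genes described here are 41 genes of T-cell identity, T-cell receptor (TCR) signalling and Notch signalling, chosen by name from the 62446 gene rows of the count tables. They comprise 5 receptor chains, 11 coreceptors and other surface molecules, 12 signalling molecules and adaptors, 8 transcription factors and 5 Notch genes. Each symbol matched 1 row. They were followed in CEM, a human T-cell acute lymphoblastic leukaemia (T-ALL) line, with the B-cell precursor line Nalm6 and its TLE1 knockout derivative as an outside reference.

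A T cell recognises antigen through a receptor whose signal leaves the cell surface through the CD3 chains and the zeta chain CD247. The kinase LCK, held at the coreceptors CD4 and CD8, phosphorylates these chains, ZAP70 docks on them, and the adaptors LAT and LCP2 (SLP-76) pass the signal on. In the thymus a precursor first tests its beta chain with the surrogate chain PTCRA (pre-TCR alpha), passes a stage with both CD4 and CD8 and with CD1 molecules on its surface, and then keeps 1 coreceptor. Notch receptors are cut after ligand binding, and their freed inner part joins the DNA-binding protein RBPJ to switch on targets such as HES1, HES4, DTX1 and PTCRA. This pathway drives commitment to the T lineage and is often activated in T-ALL.

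The study sequenced RNA from 33 libraries, 3 in each of 11 groups, to examine how glucocorticoid and Wnt signalling bear on each other in leukaemia cells. CEM was left untreated, given the GSK3 inhibitor and Wnt agonist CHIR-99021 at 2 µM, or given the glucocorticoid prednisolone at 10 µM, each for 24 h. Parental Nalm6 had an untreated group, CHIR-99021 at 0.5 µM and prednisolone at 5 µM, and a second untreated group with its own group given the glucocorticoid dexamethasone at 100 nM, all treated for 24 h. The TLE1 knockout Nalm6 cells, which lack the co-repressor gene TLE1 by their label, were untreated, given prednisolone at 5 µM, or given dexamethasone at 100 nM, each for 24 h. Whether the knockout is 1 clone is not given in the sources used here. The series text calls the repeats independent experiments for the CHIR-99021 Nalm6 and prednisolone knockout groups only, so elsewhere the p-values measure the spread between these libraries, which may be technical.

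Libraries held 25292579 to 61930057 gene counts, and 3 counts were worth 0.0484 to 0.119 counts per 1000000 (CPM). TLE1 transcript was measured at 24.0 to 25.4 CPM in the untreated knockout libraries and at 30.2 to 34.0 CPM in the first untreated parental group. In the second untreated parental group it was at 26.0 to 27.9 CPM, close to the knockout. A transcript count over the whole gene does not check an edit that leaves the RNA in place. The 6 T-lineage markers CD3D, CD3E, CD3G, CD2, CD5 and CD7 summed to 990 to 1038 CPM in untreated CEM and to at most 0.726 CPM in any Nalm6 or knockout library. Of the B-lineage markers, MS4A1 and CD22 were at 0 in untreated CEM, and EBF1 was under 0.1 CPM, while CD79A (30.3 CPM) and IGLL1 (29.9 CPM) were not. Traces of T-cell transcripts set 1 library apart. Of 16 genes of the set that CEM expressed and that were at 0 throughout the first untreated Nalm6 group, replicate 1 of the second untreated Nalm6 group had 62 counts over 12. That is 1.36 CPM in sum, or 0.0901% of the level of untreated CEM, whereas replicates 2 and 3 of its group had 0 and 3 counts and the other Nalm6 and knockout libraries had 0 to 5. That library is among the untreated ones in 2 comparisons, of CEM with Nalm6 and of dexamethasone in Nalm6. Values are also given without it there. Replicates of other groups differed too, by a chi-square per degree of freedom between pairs. It was 42.06 and 43.74 for replicate 3 of CHIR-99021 Nalm6, against 5.773 between the other replicates. Within the untreated knockout it was 17.67 to 32.96. For replicate 2 of untreated CEM it was 9.098 and 8.389, against 2.102 between the other replicates.

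The promoters of 3 genes are printed because HES1, HES4 and CD8A were among the genes with the largest changes under prednisolone and hold the letters GTGGGAA, the core sequence bound by RBPJ. RefSeq promoters (GRCh38.p14) of 28 of the 41 genes were matched by symbol, each running from 250 bases before the transcription start to 50 after it. Each line gives the 250 bases before the start, 5′ to 3′ on the gene's strand, with GTGGGAA in capitals: HES1 at chr3:194135898-194136147 on the plus strand, HES4 at chr1:1000098-1000347 on the minus strand and CD8A at chr2:86808043-86808292 on the minus strand.
HES1: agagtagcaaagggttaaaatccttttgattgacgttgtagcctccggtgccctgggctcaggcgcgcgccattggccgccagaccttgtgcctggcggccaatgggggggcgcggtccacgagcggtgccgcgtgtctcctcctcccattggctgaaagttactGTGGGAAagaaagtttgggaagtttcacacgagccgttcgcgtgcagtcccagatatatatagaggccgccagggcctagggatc
HES4: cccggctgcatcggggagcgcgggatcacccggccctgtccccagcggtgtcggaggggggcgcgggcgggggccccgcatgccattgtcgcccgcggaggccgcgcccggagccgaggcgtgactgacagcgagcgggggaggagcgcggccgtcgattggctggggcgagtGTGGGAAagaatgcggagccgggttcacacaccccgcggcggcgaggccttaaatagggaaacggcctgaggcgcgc
CD8A: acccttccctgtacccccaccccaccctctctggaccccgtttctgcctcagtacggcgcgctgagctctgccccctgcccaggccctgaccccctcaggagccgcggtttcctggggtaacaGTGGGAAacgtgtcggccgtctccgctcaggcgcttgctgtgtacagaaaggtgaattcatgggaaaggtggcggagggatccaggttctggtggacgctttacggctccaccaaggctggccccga

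The match began 85 bases before the start of HES1, 77 bases before that of HES4 and 127 bases before that of CD8A. Searched on both strands, GTGGGAA was in 6 of the 28 promoters, with CD3D, LAT and TRAT1 as the other carriers, against 6.28% of all 27305 promoters in the table. The TCF/LEF core ATCAAAG was in 2 of the 28, those of ZAP70 and FYN, against 2.64% of all. The full glucocorticoid response element, AGAACA and TGTTCT with any 3 bases between them, was in none of the 28 and in 1 of all 27305. The 3 motifs do not overlap each other in letters. These matches describe letters in a short window and were not tied to binding here.

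Untreated CEM expressed nearly the whole set. Of the 41 genes, 40 reached 1 CPM in every CEM library of every group, and LMO1 was the exception, with no count in any of the 9 CEM libraries, which allows up to 0.0887 CPM in the shallowest of them by counting error alone. LMO1 is a LIM-domain partner of TAL1, as is LMO2, which was measured at 13.2 ± 0.510 CPM (SD, n = 3). In untreated CEM 35 of the 41 genes reached 10 CPM in every library.

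Scaled for gene length as transcripts per 1000000 (TPM), the levels in untreated CEM ran from 1237 ± 40.1 TPM (SD, n = 3) for CD3D down to 4.39 ± 0.243 TPM for CD8B, leaving LMO1 aside. After CD3D came SH2D1A, the adaptor SAP of SLAM receptors, at 560 ± 15.6 TPM, LCK at 523 ± 15.8 TPM and CD1E at 377 ± 6.87 TPM. These leading genes did not overlap their neighbours in the order. Lower down, the 3 libraries of CD3E (200 ± 24.7 TPM) overlapped both those of ZAP70 above it (217 ± 1.96 TPM) and those of NOTCH1 below it (176 ± 6.55 TPM). The coreceptors were low beside the CD3 chains, with CD4 at 38.0 ± 1.25 TPM and CD8A at 13.6 ± 0.538 TPM. The pre-TCR chain PTCRA stood at 18.3 ± 0.794 TPM. Among the Notch genes HES1 followed NOTCH1 at 102 ± 3.47 TPM, and HES4 (23.2 ± 2.34 TPM), NOTCH3 (15.2 ± 1.52 TPM) and DTX1 (6.95 ± 0.518 TPM) were lower. TAL1, the basic helix-loop-helix factor often switched on in T-ALL, was measured at 45.3 ± 0.868 TPM, in a range that did not reach that of PTPN22 below it.

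**Figure D1:**
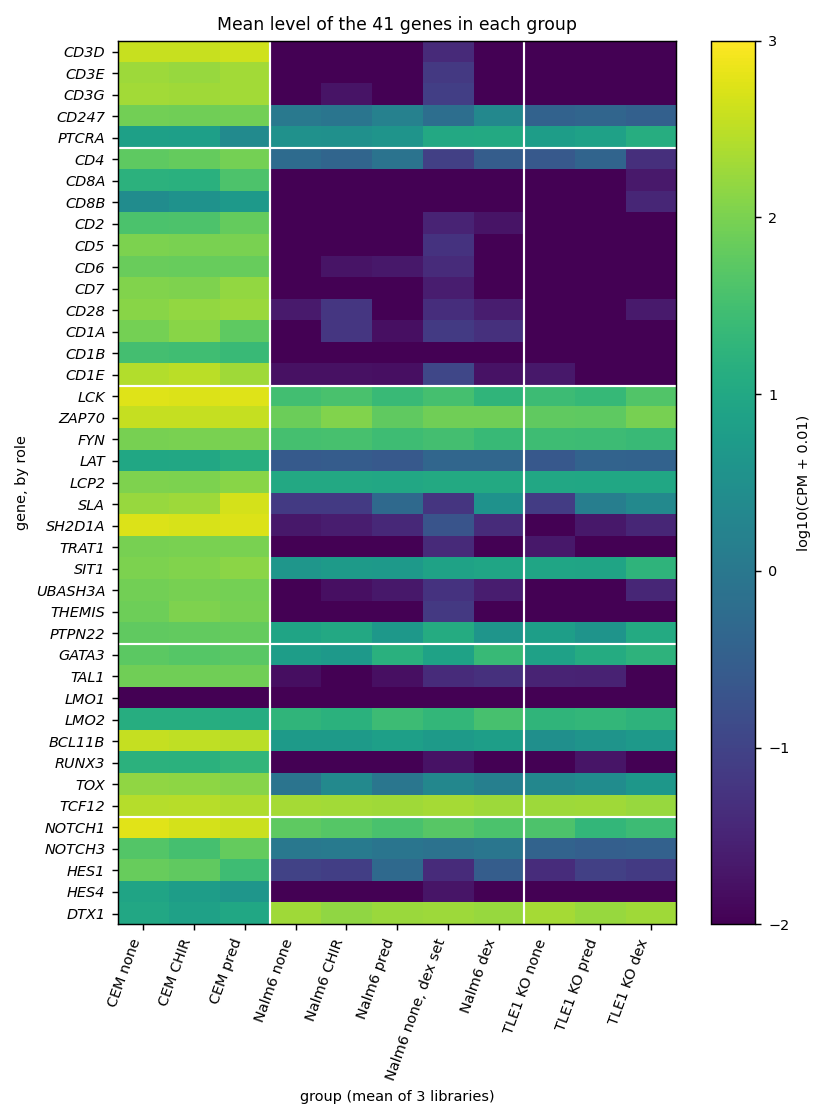
Mean level of each of the 41 genes (rows, by role) in the 11 groups (columns, mean of 3 libraries), as the base-10 logarithm of CPM plus 0.01, so that a gene at 0 takes the darkest colour. The 3 CEM columns are bright for all genes but LMO1, and the Nalm6 and knockout columns are dark for most receptor chains and surface molecules and bright for DTX1 and TCF12.

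Prednisolone changed a majority of the set in CEM, in both directions. The coreceptor transcripts CD4 and CD8A rose, the pre-TCR chain PTCRA and the CD1 molecules fell, NOTCH1 and its targets HES1 and HES4 fell, and the CD3 chains other than CD3D did not pass the test. In all, 25 of the 40 genes tested passed an adjusted p of 0.05 by edgeR's quasi-likelihood test with Benjamini-Hochberg adjustment over all genes, 14 higher and 11 lower. Over all 17381 genes tested the share called was 45.1%, 22.3% higher and 22.8% lower. The median log2 fold change was -0.02 over the set and 0.02 over all genes. Beside this, the B-lineage markers summed to 76.4 to 77.4 CPM in untreated and 90.1 to 96.5 CPM in treated libraries. CD79A went from 30.3 to 57.4 CPM in the mean, a larger rise than that of the sum, so the other B-lineage markers fell in sum. MS4A1 was at 0 and CD22 and EBF1 under 0.1 CPM throughout. The natural killer markers summed to 15.8 to 18.2 CPM untreated and 20.8 to 22.9 CPM treated. Their part in the result was not tested. In bulk RNA, fewer cells of a kind and less RNA per cell cannot be told apart.

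**Figure D2:**
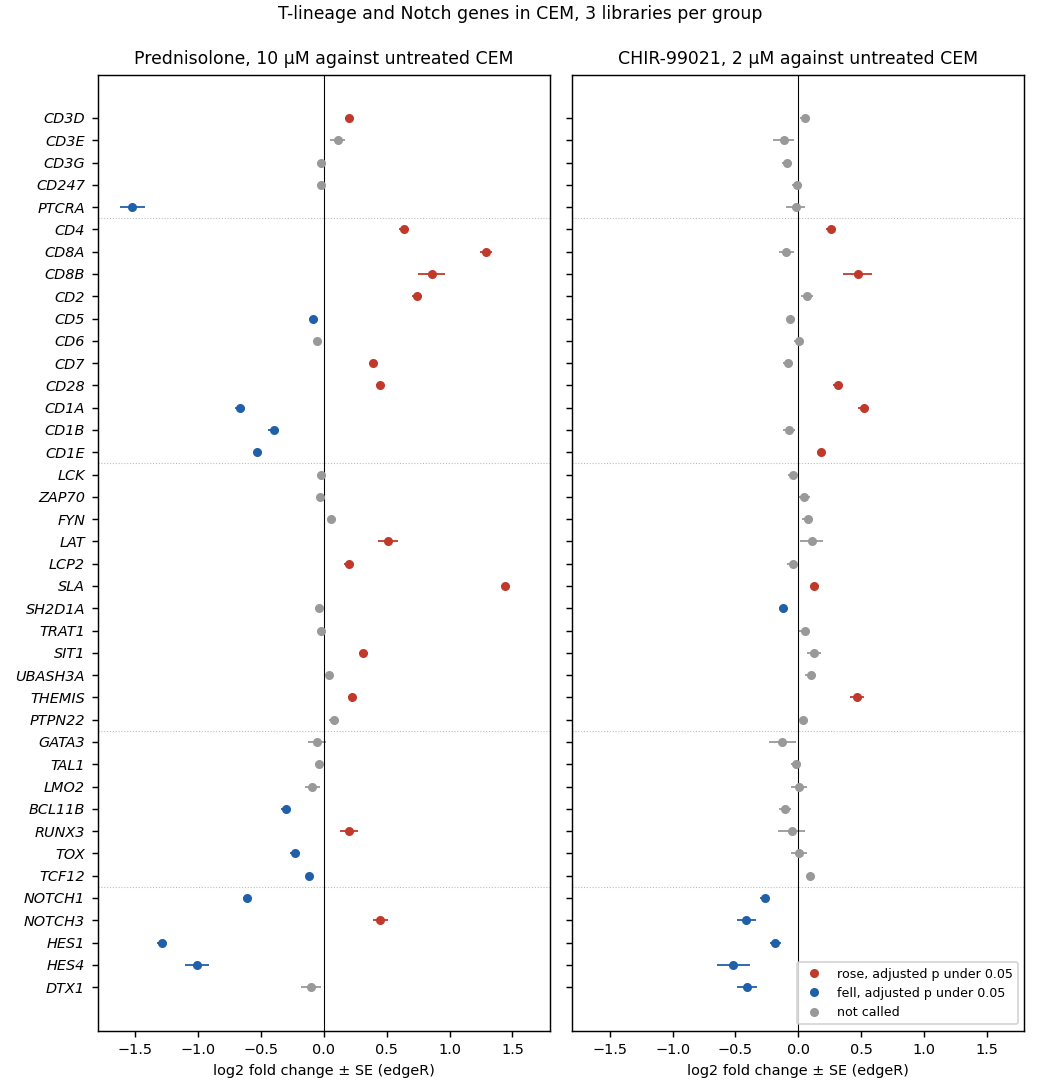
Log2 fold change with its standard error (horizontal axis, edgeR) of 40 of the 41 genes in CEM, for prednisolone at 10 µM (left) and CHIR-99021 at 2 µM (right) against the same 3 untreated libraries. Red points rose and blue points fell at an adjusted p under 0.05. Under prednisolone PTCRA, HES1 and HES4 lie farthest to the left and SLA and CD8A farthest to the right, and under CHIR-99021 all 5 Notch genes lie to the left.

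Among the receptor chains PTCRA carried the change. It measured 7.22, 6.89 and 6.71 CPM untreated and 2.62, 2.41 and 2.34 CPM under prednisolone. Every treated library was below every untreated one, with a log2 fold change of -1.52 ± 0.10 (SE) and an adjusted p of 8.11e-10. CD3D, which encodes the delta chain of CD3, went from 384, 362 and 371 CPM to 441, 436 and 432 CPM. This was a small rise of 0.20 ± 0.03 on the log2 scale (adjusted p = 2.49e-05). CD3G (-0.02), CD247 (-0.02) and CD3E (0.11, adjusted p = 0.136) did not pass. CD3E measured 177, 208 and 166 CPM untreated, so that replicate 2 alone reached the treated range of 197 to 207 CPM. Without that library the log2 fold change of CD3E was 0.20 with an adjusted p of 1.14e-06.

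Of the 11 coreceptors and surface molecules 10 passed, 6 higher and 4 lower, where 45.1% of all genes were called. CD8A, the alpha chain of the CD8 coreceptor, rose most. Its untreated libraries held 16.6, 16.0 and 15.5 CPM and the treated ones 41.4, 38.1 and 40.9 CPM, a log2 fold change of 1.29 ± 0.05 (adjusted p = 5.50e-13). CD4 rose beside it, from 55.9, 58.1 and 55.1 CPM to 90.0, 90.0 and 88.3 CPM (0.63 ± 0.03, adjusted p = 4.92e-11). Both coreceptors were thus higher in every treated library. CD8B, the other CD8 chain, went from 2.51, 2.61 and 2.84 CPM to 4.51, 5.00 and 5.19 CPM (0.86 ± 0.11, adjusted p = 3.36e-06). Its value is uncertain because a near-identical gene copy could share its reads.

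CD2, an adhesion receptor of T cells, went from 40.3, 37.0 and 39.8 CPM to 64.1, 68.1 and 68.0 CPM (log2 fold change 0.74 ± 0.04, adjusted p = 5.73e-11). The costimulatory receptor CD28 went from 132, 122 and 131 CPM to 174, 181 and 181 CPM (0.45 ± 0.03, adjusted p = 8.09e-09). CD7, an early marker of the lineage, went from 115, 114 and 112 CPM to 154, 150 and 152 CPM (0.39 ± 0.03, adjusted p = 1.25e-08). These 3 rises were each larger than the spread within either group.

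The 3 CD1 genes of the set, which encode lipid-presenting molecules of cortical thymocytes, all fell under prednisolone. CD1A measured 95.3, 85.0 and 89.0 CPM untreated and 57.8, 57.1 and 58.3 CPM treated (log2 fold change -0.67 ± 0.04, adjusted p = 1.88e-10). CD1E, the most abundant of them, measured 274, 265 and 269 CPM against 189, 191 and 191 CPM (-0.53 ± 0.03, adjusted p = 6.81e-11). CD1B measured 32.6, 31.3 and 30.5 CPM against 23.6, 24.7 and 24.99 CPM (-0.40 ± 0.05, adjusted p = 1.14e-06). No treated library of any of the 3 reached an untreated one. CD5, an inhibitory receptor set by TCR signal strength, passed by little, at -0.09 ± 0.03 (adjusted p = 0.0322). It missed the threshold when untreated replicate 3 (adjusted p = 0.0580) or treated replicate 2 or 3 (adjusted p up to 0.114) was left out, and without the low-count filter (adjusted p = 0.0623). Its neighbour in function CD6 was at -0.06 and did not pass.

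Of the 12 signalling genes 5 passed, all higher, a share of 41.7% that stood near the 45.1% called over all genes. They were led by SLA (SLAP), an adaptor that promotes turnover of the TCR complex. SLA measured 176, 167 and 172 CPM untreated and 479, 475 and 472 CPM under prednisolone. That is a log2 fold change of 1.44 ± 0.03 (adjusted p = 1.07e-16), with a wide gap between the groups. LAT went from 9.75, 9.98 and 8.19 CPM to 12.9, 13.1 and 14.9 CPM (0.51 ± 0.08, adjusted p = 4.66e-05). The inhibitory adaptor SIT1 went from 108, 98.9 and 107 CPM to 136, 131 and 130 CPM (0.31 ± 0.04, adjusted p = 1.64e-06). THEMIS, which tunes TCR signal strength in thymocytes, rose by less, at 0.22 ± 0.03 (adjusted p = 3.04e-05), as did LCP2 at 0.20 ± 0.04 (adjusted p = 3.86e-04). The kinases at the head of the pathway did not pass the test. LCK measured 577, 545 and 576 CPM untreated and 572, 568 and 562 CPM treated, and ZAP70 measured 360, 354 and 363 CPM against 362, 354 and 363 CPM. In both the groups overlapped. FYN, PTPN22, UBASH3A, TRAT1 and SH2D1A lay between -0.04 and 0.08 on the log2 scale.

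Of the 7 transcription factors tested 4 passed, 3 of them lower, a share of 57.1% against 45.1% over all genes. BCL11B, which secures T-lineage commitment, measured 347, 379 and 368 CPM untreated and 302, 297 and 305 CPM treated (log2 fold change -0.31 ± 0.03, adjusted p = 6.65e-07). TOX, needed for CD4 T-cell development, measured 140, 154 and 141 CPM against 122, 128 and 128 CPM (-0.23 ± 0.04, adjusted p = 7.40e-05). TCF12, the E protein HEB, fell by 0.12 ± 0.03 (adjusted p = 0.00254). All 3 were small falls with no overlap between groups. RUNX3, a factor of the CD8 lineage, was higher at 0.20 ± 0.07 (adjusted p = 0.0302), from 15.8, 18.8 and 14.8 CPM to 19.8, 19.5 and 18.9 CPM. This call missed the threshold without untreated replicate 1 or 3 or treated replicate 1 or 2 (adjusted p from 0.0952 to 0.150). The T-lineage factor GATA3 (-0.06), TAL1 (-0.04) and LMO2 (-0.09) did not pass. GATA3 measured 49.9, 63.5 and 48.0 CPM untreated, a spread wider than the treated range of 52.0 to 54.7 CPM.

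Of the 5 Notch genes 4 passed, 3 lower and 1 higher, where 45.1% of all genes were called. The receptor NOTCH1 measured 576, 615 and 585 CPM untreated and 395, 390 and 400 CPM with the drug. The log2 fold change was -0.61 ± 0.03 (adjusted p = 2.11e-11). Its target HES1, a repressor of the basic helix-loop-helix family, measured 65.1, 68.3 and 70.6 CPM against 29.2, 28.6 and 27.3 CPM (-1.29 ± 0.04, adjusted p = 6.18e-14). HES4 measured 8.84, 8.91 and 7.51 CPM against 4.67, 3.92 and 4.25 CPM (-1.01 ± 0.10, adjusted p = 1.40e-07). In these 3 no treated library reached an untreated one, and HES1 and HES4 both carry the GTGGGAA letters shown above, as does CD8A, which rose. NOTCH3 moved the other way, from 40.9, 49.7 and 48.5 CPM to 66.6, 60.0 and 67.2 CPM (0.45 ± 0.06, adjusted p = 6.35e-06). DTX1, an E3 ligase of the pathway, measured 10.5, 9.89 and 9.19 CPM against 10.2, 9.22 and 8.75 CPM and did not pass (adjusted p = 0.304).

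**Figure D3:**
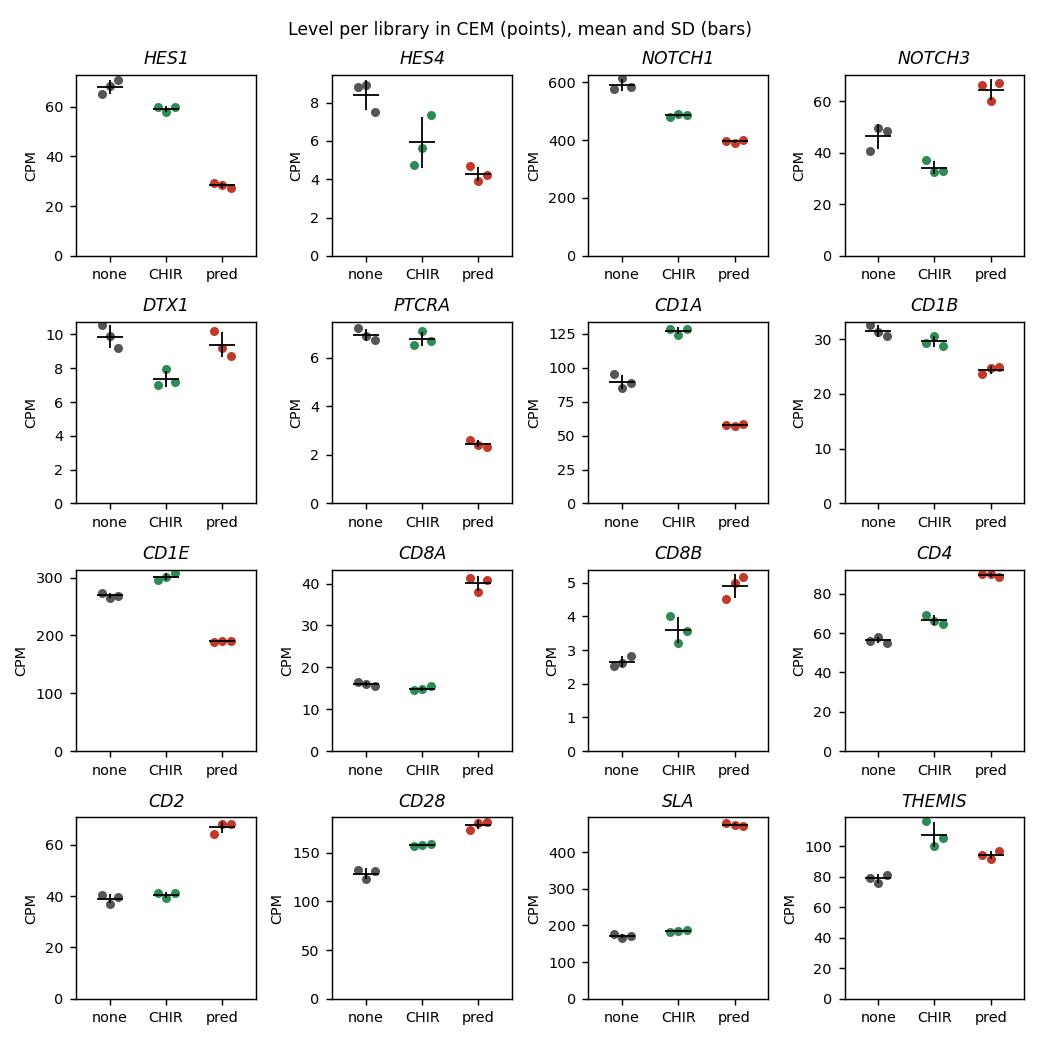
CPM in each of the 9 CEM libraries (points) with the mean and SD of each group of 3 (bars), for 16 of the genes, with every vertical axis starting at 0. HES1, NOTCH1, PTCRA, CD1A, CD1B and CD1E are lowest under prednisolone, and CD8A, CD4, CD2, CD28, SLA and NOTCH3 are highest there.

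Lists of other genes of these pathways, outside the 41, were tested in the same fit. The share called over all genes was 45.1%, as above. Of 33 tested TCR-signalling companions 27 passed under prednisolone, 20 higher and 7 lower, with a list median of 0.18 on the log2 scale. The largest rises were BTLA (2.12), the activation marker CD69 (1.91) and UBASH3B (1.50), and the largest falls RASGRP1 (-0.51), PAG1 (-0.30) and NFATC2 (-0.28). BTLA was near the floor untreated, at 0.0733 CPM in the mean, and passed the filter only through the treated group. Its call as higher was thus bound to that direction. CD69, an early activation antigen, went from 35.4, 31.2 and 34.0 CPM to 126, 130 and 130 CPM. Of 27 tested Notch companions 15 passed, 7 higher and 8 lower, with NOTCH4 (1.71), the glycosyltransferase LFNG (1.26) and the coactivator MAML3 (0.77) as the largest rises and NUMBL (-0.50), DTX4 (-0.44) and SPEN (-0.16) as the largest falls. This Notch share, 55.6%, stood near that of all genes. The DNA-binding partner RBPJ itself was at -0.03 and did not pass.

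Of 23 tested lineage and blast transcription factors 17 passed, 10 higher and 7 lower, a share of 73.9% against 45.1% over all genes. RUNX2 had the largest change, from 0.347, 0.263 and 0.355 CPM to 18.6, 17.2 and 18.5 CPM, a log2 fold change of 5.78 ± 0.12 (adjusted p = 1.07e-16). ID2 (0.91) and LYL1 (0.52) followed, and SATB1 (-0.56), MEF2C (-0.29) and TCF4 (-0.27) fell most. Of 13 tested genes of recombination, receptor constant regions and stage 7 passed, 3 higher and 4 lower, a share of 53.8% that also stood near that of all genes. The interleukin-7 receptor gene IL7R went from 9.45, 9.63 and 9.25 CPM to 110, 107 and 105 CPM (3.48 ± 0.04, adjusted p = 5.08e-20), and the alpha constant region TRAC (0.90) and gamma constant region TRGC2 (0.35) also rose. The recombinase gene RAG1 went from 418, 393 and 415 CPM to 198, 182 and 186 CPM (-1.14 ± 0.04, adjusted p = 3.36e-14), and the terminal transferase DNTT (-0.62) and CD1C (-0.59) also fell. The rise of TRAC and the falls of RAG1, DNTT and CD1C stood beside the fall of PTCRA and of the CD1 genes in the same libraries. Of the same list 6 genes did not pass. They were RAG2 (-0.04), CD38 (-0.07), CD34 (-0.02), TRBC2 (0.05), CD44 (0.05) and TRGC1 (0.24).

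CHIR-99021 changed fewer of the genes in CEM and by less. All 5 Notch genes fell, 5 surface molecules including CD1A, CD28 and CD4 rose, and no receptor chain or transcription factor passed. In all 13 of the 40 genes tested were called, 7 higher and 6 lower, where the share over all 17200 genes tested was 10.8%, with 5.41% higher and 5.43% lower. The set median and the median of all genes were each under 0.01 in size on the log2 scale. The T-lineage markers summed to 981 to 987 CPM, the B-lineage markers to 59.1 to 65.0 CPM and the natural killer markers to 15.1 to 16.3 CPM, and their part in the result was not tested.

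Among the Notch genes NOTCH1 went from 576, 615 and 585 CPM untreated to 481, 489 and 486 CPM under CHIR-99021 (log2 fold change -0.27 ± 0.04, adjusted p = 6.25e-04). NOTCH3 went from 40.9, 49.7 and 48.5 CPM to 37.1, 32.7 and 33.0 CPM (-0.41 ± 0.07, adjusted p = 0.00432). DTX1 went from 10.5, 9.89 and 9.19 CPM to 7.01, 7.93 and 7.18 CPM (-0.41 ± 0.08, adjusted p = 0.00628). For these 3 the treated libraries lay below all untreated ones. HES4 was also lower, at 4.77, 5.65 and 7.37 CPM (-0.52 ± 0.13, adjusted p = 0.0275), but its treated replicate 3 came close to the lowest untreated library at 7.51 CPM. HES1 was at 60.0, 57.7 and 59.8 CPM (-0.18 ± 0.04, adjusted p = 0.0151), a small fall. The calls of HES4 and HES1 were sensitive to single libraries. HES4 missed the threshold without untreated replicate 1 or 2 or treated replicate 1 or 2 (adjusted p from 0.0722 to 0.109), and HES1 without untreated replicate 2 or 3 or treated replicate 2 (adjusted p from 0.0594 to 0.0849). PTCRA measured 6.54, 7.10 and 6.68 CPM under CHIR-99021 and did not pass (-0.02, adjusted p = 0.911).

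Of the surface molecules CD1A rose most under CHIR-99021, to 129, 124 and 129 CPM from 95.3, 85.0 and 89.0 CPM (log2 fold change 0.52 ± 0.04, adjusted p = 2.99e-05). CD1E rose to 295, 302 and 307 CPM (0.18 ± 0.03, adjusted p = 0.00519), while CD1B (-0.07) did not pass. CD28 was at 156, 158 and 159 CPM (0.32 ± 0.04, adjusted p = 2.87e-04) and CD4 at 69.1, 66.3 and 64.5 CPM (0.26 ± 0.04, adjusted p = 0.00193). Every treated library of these 4 called genes was above every untreated one. CD8B rose to 4.01, 3.22 and 3.56 CPM (0.47 ± 0.12, adjusted p = 0.0230), a call lost without untreated replicate 1 or 2 or treated replicate 1 (adjusted p from 0.0757 to 0.0899). CD8A, in contrast to its rise under prednisolone, measured 14.5, 14.7 and 15.4 CPM and did not pass (-0.09, adjusted p = 0.343).

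Of the signalling genes 3 passed under CHIR-99021. THEMIS rose from 79.4, 76.1 and 81.4 CPM to 117, 100 and 106 CPM (log2 fold change 0.47 ± 0.05, adjusted p = 2.51e-04). SLA, at 182, 185 and 187 CPM, was higher by 0.13 ± 0.03 (adjusted p = 0.0364), and SH2D1A, at 496, 510 and 509 CPM, was lower by a log2 fold change of -0.12 ± 0.03 (adjusted p = 0.0378). Both of these calls were near the threshold. The call of SLA was lost when any 1 of the 6 libraries was left out, with adjusted p from 0.0522 to 0.122 over those fits. That of SH2D1A was lost without each of 4 of the 6 libraries (adjusted p up to 0.164). The other 27 genes tested lay between -0.13 (GATA3) and 0.12 (SIT1).

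Among the companions in the same CHIR-99021 fit, 8 of 32 TCR-signalling genes passed, 5 higher and 3 lower. RASGRP1, an activator of RAS below the TCR, led the rises at 0.88 ± 0.04 (adjusted p = 3.12e-07), followed by the inhibitory receptor gene PDCD1 (0.76) and CD69 (0.28), with NFATC1 (-0.31), PAG1 (-0.28) and DGKZ (-0.21) as the falls. Of 27 Notch companions 3 passed, ADAM10 (0.21) and SNW1 (0.13) higher and APH1B (-0.20) lower. This share, 11.1%, stood near that of all genes. Of 23 transcription factors 7 passed (30.4%), with RUNX2 (1.15) the 1 that rose and SATB1 (-0.39), TCF4 (-0.31) and ERG (-0.31) the largest falls. Of 13 recombination and stage genes 10 passed (76.9%), 7 higher and 3 lower. CD34 (0.84), TRAC (0.74), IL7R (0.50) and RAG1 (0.47) rose, and DNTT (-0.53), CD38 (-0.46) and TRBC2 (-0.17) fell.

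The drugs share the 3 untreated CEM libraries, so their values are not independent and are only set side by side here. Of the set 11 genes were called under both drugs, 8 in the same direction and 3 in opposite directions. The 8 were CD28, CD4, CD8B, HES1, HES4, NOTCH1, SLA and THEMIS. The 3 were CD1A, at -0.67 under prednisolone and 0.52 under CHIR-99021, CD1E, at -0.53 and 0.18, and NOTCH3, at 0.45 and -0.41. No such count was made over all genes. No test of one drug against the other was made.

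Against untreated Nalm6 all 40 genes that passed the filter differed in untreated CEM, where 77.5% of all 18018 genes tested were called, 40.2% higher and 37.3% lower in CEM. A gene seen only in CEM passes the filter through CEM alone and so had to differ, which holds for most of the set. The reference was the second untreated Nalm6 group, and without its replicate 1, the library that stood apart, the count was again 40. In CEM 37 genes were higher and DTX1, LMO2 and PTCRA lower. Against the first untreated Nalm6 group, where CD3D had no count, its level in CEM was at least 5908-fold higher with the floor of 3 counts per library. On the same floor CD3G was at least 3249-fold, CD7 at least 1828-fold, CD5 at least 1654-fold, THEMIS at least 1243-fold and CD8A at least 253-fold higher. HES4 was at least 122-fold higher.

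Other members were shared by the lines. TCF12 differed by 0.35 on the log2 scale between CEM and the second untreated Nalm6 group, FYN by 1.49, ZAP70 by 2.09, PTPN22 by 2.32, GATA3 by 2.81, NOTCH1 by 3.54 and LCK by 4.03. Without replicate 1 of that group, the library that stood apart, these were 0.37, 1.50, 2.05, 2.38, 2.70, 3.47 and 4.06 in the same order. Nalm6 thus held transcripts of several TCR-proximal kinases and of NOTCH1 while lacking the CD3 chains. In the first untreated Nalm6 group 13 of the 41 genes reached 1 CPM in every library, and 21 had at most 3 counts in each. DTX1 was the gene most in excess in Nalm6. Its libraries held 170, 192 and 199 CPM in the second untreated group against 10.5, 9.89 and 9.19 CPM in CEM (log2 fold change -4.27, adjusted p = 8.13e-15; -4.33 without replicate 1). PTCRA depended on the Nalm6 group used. It measured 10.7, 8.95 and 12.3 CPM in the second untreated group, above CEM (-0.65, adjusted p = 8.08e-05, and again -0.65 without replicate 1), and 3.10, 4.06 and 3.12 CPM in the first, below CEM (1.08, adjusted p = 4.54e-08). The ranges of the untreated Nalm6 groups thus lay on either side of the CEM range of 6.71 to 7.22 CPM.

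Prednisolone at 5 µM in parental Nalm6 served as the outside reference for the CEM response. Of 20 genes that passed the filter 13 were called, 6 higher and 7 lower, against 54.8% of all genes tested, 28.7% higher and 26.1% lower. NOTCH1 fell there too, from 54.5, 60.9 and 60.8 CPM to 39.7, 35.7 and 36.6 CPM (log2 fold change -0.69 ± 0.05, adjusted p = 6.02e-09). GATA3 rose from 6.20, 6.55 and 5.80 CPM to 15.8, 14.9 and 14.5 CPM (1.25 ± 0.07, adjusted p = 9.46e-11). The phosphatase PTPN22, a brake on TCR signalling, fell from 8.43, 7.69 and 8.97 CPM to 5.09, 4.38 and 4.15 CPM (-0.93, adjusted p = 2.17e-07). In these 3 the groups did not overlap. LCK (-0.38), ZAP70 (-0.34) and FYN (-0.25) were lower and LMO2 (0.51) and CD247 (0.57) higher, the call of CD247 being lost without untreated replicate 3 or treated replicate 1 or 3 (adjusted p from 0.0688 to 0.135). SLA and HES1, at a few counts untreated, passed the filter only through the treated group, so their calls as higher were bound to that direction. SLA had 4, 4 and 2 counts untreated and 17, 19 and 33 treated. HES1 had 5, 4 and 6 counts untreated and 17, 22 and 30 treated. Both stayed far below their CEM levels.

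The difference between the prednisolone responses of CEM and Nalm6 was tested as an interaction. Of the 40 genes tested 12 passed, 5 with a higher value in CEM and 7 with a lower, against 26.9% of 20491 genes, 14.7% higher and 12.2% lower. Only 20 of the 40 had passed the filter within the Nalm6 groups. The others were at or near 0 there and entered this test through CEM alone, so they could hardly be called. Their absence from the 12 is no result about them. HES1 had the largest value, -3.67 on the log2 scale (adjusted p = 8.80e-10), which on the Nalm6 side rests on the few counts given above. PTCRA differed by -1.66 (adjusted p = 6.26e-09), with a Nalm6 level of 3.43 CPM untreated and 3.85 CPM under prednisolone. GATA3 differed by -1.29 (adjusted p = 6.21e-09) and SLA, also at a few counts in Nalm6, by -1.51 (adjusted p = 0.00208). PTPN22 (1.03), LCK (0.36), ZAP70 (0.33) and FYN (0.32) had the opposite sign, since they fell in Nalm6 and did not pass in CEM. NOTCH1 was not among the 12. Line, dose (10 against 5 µM) and the set of files differ together here and cannot be told apart.

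**Figure D4:**
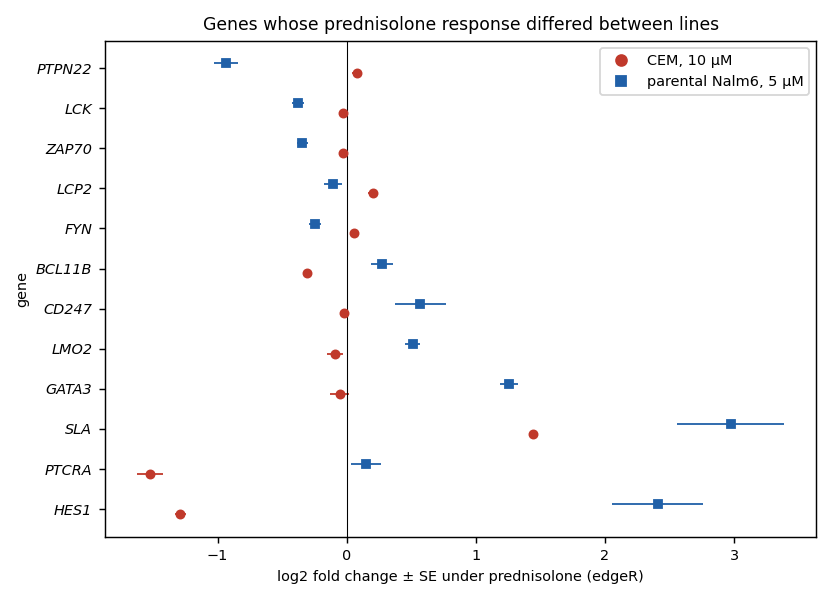
Log2 fold change with its standard error (edgeR) under prednisolone for the 12 genes whose response differed between the lines, in CEM at 10 µM (red circles) and parental Nalm6 at 5 µM (blue squares). HES1 lies at -1.29 in CEM and, from a few counts, at 2.41 in Nalm6, SLA lies to the right in both, and PTPN22 fell in Nalm6 and did not pass in CEM.

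Dexamethasone at 100 nM in Nalm6 called 12 of 18 genes, 5 higher and 7 lower, against 60.5% of all genes, 30.2% in each direction. SLA had 4, 2 and 0 counts untreated and 135, 158 and 153 treated, and again passed the filter only through the treated group. CD247 (1.64), GATA3 (1.62) and LMO2 (0.76) rose, and PTPN22 (-1.60), LCK (-0.92), TOX (-0.57), FYN (-0.53) and NOTCH1 (-0.39) fell. Without untreated replicate 1, the library that stood apart, these were 1.84, 1.48, 0.75, -1.56, -0.91, -0.64, -0.54 and -0.48 in the same order and each was still called. BCL11B (0.27) lost its call without that library (0.24, adjusted p = 0.0569). GATA3, LMO2 and CD247 were thus higher, and PTPN22, LCK, FYN and NOTCH1 lower, under each of the glucocorticoids in Nalm6, in tests with separate controls. The count was 13 without that library and ranged from 11 to 13 over all single libraries left out. In the TLE1 knockout cells prednisolone at 5 µM called 6 of 18 genes, 2 higher and 4 lower, against 41.7% of all genes, 19.8% higher and 21.9% lower. NOTCH1 fell from 43.2, 44.3 and 34.8 CPM to 17.8, 21.5 and 22.3 CPM (-1.03 ± 0.11, adjusted p = 2.90e-05), PTPN22 (-0.78), LCK (-0.33) and DTX1 (-0.33) also fell, and GATA3 (0.70) rose. SLA, called as higher, had 3, 1 and 2 counts untreated and 51, 41 and 41 treated, and passed the filter only through the treated group. For DTX1 the groups did overlap in CPM, and its call was lost without untreated replicate 2 or treated replicate 1 (adjusted p up to 0.0588).

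NOTCH1 was therefore lower under glucocorticoid in each of the 4 comparisons made, in CEM, in Nalm6 under either drug and in the knockout cells, which used separate control libraries. In CPM, SLA under glucocorticoid ranged from 0.361 to 3.89 in the Nalm6 and knockout libraries and from 472 to 479 in CEM. NOTCH1 was at 35.7 to 40.8 CPM in treated Nalm6 and at 390 to 400 CPM in treated CEM.

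CHIR-99021 at 0.5 µM in Nalm6 called 7 of 18 genes, 4 higher and 3 lower, against 7.88% of all genes, 3.16% higher and 4.72% lower. DTX1 went from 177, 197 and 199 CPM to 144, 153 and 141 CPM (log2 fold change -0.39 ± 0.05, adjusted p = 0.00262). NOTCH1 was lower as well, at 51.4, 50.2 and 41.5 CPM (-0.30 ± 0.08, adjusted p = 0.0430), in a call lost without any 1 of the 3 untreated libraries or treated replicate 1 (adjusted p from 0.0585 to 0.179). DTX1 and NOTCH1 also fell under CHIR-99021 in CEM, at 2 µM. ZAP70 rose from 75.1, 75.0 and 72.5 CPM to 108, 113 and 116 CPM (0.60 ± 0.04, adjusted p = 6.34e-05). TOX rose from 0.791, 0.877 and 0.853 CPM to 2.74, 2.41 and 1.60 CPM (1.40 ± 0.21, adjusted p = 0.00309). The second untreated Nalm6 group, outside this comparison, held TOX at 2.07 CPM in the mean, within that treated range. LCK (0.27) and PTPN22 (0.31) were higher and LMO2 (-0.24) lower, each lost without at least 1 library. Without untreated replicate 2 or 3 the count of 7 fell to 3 or 4.

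Untreated knockout cells against the first untreated Nalm6 group differed in 11 of 18 genes, 3 higher and 8 lower, against 27.1% of all genes, 15.3% higher and 11.8% lower. TOX (1.34), SIT1 (1.01) and PTCRA (0.86) were higher in the knockout, and CD247 (-1.45), CD4 (-1.21), BCL11B (-0.72) and NOTCH1 (-0.50) were lower. PTCRA was at 6.08, 6.09 and 6.07 CPM in the knockout against 3.10, 4.06 and 3.12 CPM. The second untreated parental group held more PTCRA than the knockout, at 8.95 to 12.3 CPM. SIT1 and TOX in that group were at 7.26 to 8.06 CPM and 1.92 to 2.19 CPM, within or near the knockout ranges of 7.62 to 9.89 CPM and 1.74 to 2.45 CPM. CD247 and CD4 were under 1 CPM in the knockout, where CD4 had 11, 7 and 4 counts, and their calls were lost without parental replicate 1 or 2 for CD247 (adjusted p up to 0.0966) and without 4 of the 6 libraries, or by DESeq2 (adjusted p = 0.0532), for CD4. CD4 passed the filter only through the parental group, so its call as lower was bound to that direction. The second untreated parental group held CD4 at 0.0786 CPM in the mean, below the knockout mean of 0.242 CPM. Its means of CD247 (0.641 CPM), BCL11B (5.20 CPM) and NOTCH1 (49.7 CPM) lay above those of the knockout (0.366, 3.12 and 40.7 CPM). Without parental replicate 1 the count of 11 fell to 7.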

How the data were processed

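RNA was sequenced from 33 libraries of leukaemia lines. Per the deposited file layout, the authors' tables hold raw read counts per gene as the aligner STAR writes them, unstranded and for each strand, over 62446 genes. The submitters' processing notes name Bowtie2, DESeq2 and hg19, with no role. The fourth column was used, since its gene total was 12.3 to 15.3 times that of the third. Rows of unmapped (2.84% to 11.2%), featureless (18.4% to 32.7%), multiply mapped (4.83% to 7.55%) and ambiguous (4.70% to 7.45%) reads stayed out of library sizes and tests.

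Symbols came from an Ensembl table (58695 of the 62446 rows). CPM is counts per 1000000 gene counts. TPM used GENCODE v29 exon lengths, found for 56643 rows, a build other than the one named in the notes. Each comparison was fitted on its own groups with edgeR 4.0.16 (R 4.3.3; filterByExpr, TMM, quasi-likelihood test, Benjamini-Hochberg over all genes, threshold 0.05), and standard errors were taken from the log2 fold change and F. DESeq2 1.42.0, other scaling, filters, the unstranded column, a replicate block and leaving out each library were alternatives. The scripts were tested on simulated data. Counting error alone sets the floor of 3 counts.

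Groups came from the sample titles, which assign the drugs as the series text does. The treatment protocol in the labels assigns them otherwise. The genes and all lists were chosen with earlier results of these data known. In CEM, called genes were named by size of change, and elsewhere at most 10 per comparison. Companion lists were named by the 3 largest called changes each way, and RAG1 under CHIR-99021 and RBPJ were added after their values were seen. Marker lists were T lineage, B lineage, natural killer, myeloid (0.589 to 7.12 CPM summed over all groups), erythroid (at most 0.469 CPM) and fibroblast and endothelial (at most 2.79 CPM). TRBC1 and PECAM1 matched no row by symbol.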

Additional observations from a re-analysis of the deposited data

Results flagged for a closer look

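The prednisolone response differed between CEM and Nalm6, by an interaction test, for 12 of the 40 genes tested. That share, 30.0%, stood near the 26.9% called over all 20491 genes tested. On the Nalm6 side the values of HES1 and SLA rest on a few counts. The differences, CEM minus Nalm6 on the log2 scale, were -3.67 for HES1, -1.66 for PTCRA, -1.51 for SLA, -1.29 for GATA3, -0.59 for LMO2, -0.57 for CD247 and -0.56 for BCL11B. They were 0.32 for FYN, 0.32 for LCP2, 0.33 for ZAP70, 0.36 for LCK and 1.03 for PTPN22. For BCL11B the response was -0.31 in CEM and 0.27 in Nalm6. The difference for CD247 missed the threshold without replicate 3 of the first untreated Nalm6 group (-0.37, adjusted p = 0.0824).

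The TLE1 knockout cells given dexamethasone have no untreated group of their own set and entered no comparison. Their means were 2.22 CPM for SLA, 13.0 CPM for PTCRA, 17.3 CPM for GATA3, 4.49 CPM for TOX and 17.6 CPM for SIT1. Those of the untreated knockout group were 0.0663, 6.08, 7.25, 2.08 and 8.55 CPM in the same order. These genes were picked by a rule. Every dexamethasone library had to lie above every untreated knockout library and reach 1 CPM, with a mean at least 2 times higher. The gap between the groups is therefore part of the rule, and genes that fell were not looked for. The untreated Nalm6 groups differed from each other in some of these genes, with PTCRA at 3.43 and 10.6 CPM and TOX at 0.841 and 2.07 CPM, so drug and set cannot be told apart.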

How the results depend on the processing

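Over the alternatives run, 507 of 520 gene values kept direction and side of the threshold for prednisolone in CEM, and 496 of 520 for CHIR-99021. The calls lost were those of CD5 and RUNX3 under prednisolone and of CD8B, HES1, HES4, SH2D1A and SLA under CHIR-99021. RUNX3 was also lost with all CEM groups fitted together (adjusted p = 0.125). Under prednisolone CD3E was gained without untreated replicate 2, without the low-count filter (adjusted p = 0.00753) and under the block (adjusted p = 0.0246), and SH2D1A was gained without that replicate (adjusted p = 0.0229). TCF12 was gained under CHIR-99021 with all CEM groups together (adjusted p = 0.0361).

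Leaving out single libraries gave 23 to 27 calls for prednisolone and 9 to 12 for CHIR-99021 in CEM, 40 throughout for CEM against Nalm6, 11 to 13 for prednisolone, 11 to 13 for dexamethasone and 3 to 8 for CHIR-99021 in Nalm6, 5 to 6 for prednisolone and 7 to 13 untreated in the knockout, and 11 to 13 for the difference between lines. Among these, 2 untreated Nalm6 libraries moved the 7 calls for CHIR-99021 to 3 and 4, and replicate 1 of that group moved the 11 for the untreated knockout to 7. Requiring 10 counts in every library left 17 genes to test between CEM and Nalm6, all 17 called. Without the low-count filter 19 genes were called under dexamethasone in Nalm6, of 37 tested, 7 higher and 12 lower. The untreated group there holds the library with traces of T-cell transcripts, whose part in the added calls was not tested. With the first untreated Nalm6 group as reference PTCRA reversed to 1.08.

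Same-numbered libraries did not deviate together in CEM (correlations from -0.0238 to -0.0122 for prednisolone and from -0.0792 to 0.0280 for CHIR-99021), so the numbers were not taken as pairs. With the replicate block 26 genes were called for prednisolone and 11 for CHIR-99021 in CEM, and 4 for CHIR-99021 in Nalm6. The calls lost under it were SLA (adjusted p = 0.0800) and SH2D1A (0.0783) in CEM, NOTCH1 (0.0651), PTPN22 (0.0569) and LMO2 (0.05145) for CHIR-99021 in Nalm6, and CD4 (0.0652) and TCF12 (0.0511) in the untreated knockout. The cause of these changes was not tested.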
